A study of Mus musculus with 7 samples.

Results

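The 10 genes described here mark the mural cells of blood vessels in muscle. The 6 contractile genes Tagln, Acta2, Myh11, Cnn1, Myl9 and Smtn belong to vascular smooth muscle, and Pdgfrb, Rgs5, Cspg4 and Higd1b are used as markers of pericytes. They were taken by symbol from a table of 53819 genes, and all 10 were present and passed the filter on low counts that left 14935 genes for testing. The samples were quadriceps, the large thigh muscle, of male wild-type C57BL/6J mice, with 3 libraries of the AAV8-IGFBP1 group and 4 of the AAV8-Null group. The AAV8-IGFBP1 mice received AAV8-Alb-IGFBP1 and the AAV8-Null mice AAV8-Alb-Null, in each case as 200 µl into the tail vein; the mice were 8 weeks old then, and muscle was taken 54 days later. AAV8, a serotype of adeno-associated virus, delivers genes best to liver, and Alb in the vector name is the symbol of albumin, a gene of hepatocytes. IGFBP1 is a secreted protein that binds insulin-like growth factors. The labels number the libraries within a group without saying that they are different animals. The p-values below therefore describe library-to-library spread, some or all of which could be technical.

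Vascular smooth muscle cells wrap arterioles and set their diameter by contraction, in which myosin slides along smooth muscle actin filaments. Pericytes sit on capillaries, are kept there by platelet-derived growth factor signalling from the endothelium, and carry far less of the contractile apparatus. Many contractile genes are switched on by serum response factor with its partner myocardin, which act through a short promoter sequence called the CArG box. In a piece of skeletal muscle both cell types are a small minority among muscle fibres.

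Promoter windows are shown because the CArG box is the best known sequence feature that contractile genes share. RefSeq windows (GRCm38.p6) from 250 bases before to 50 bases after the gene start were at hand for 6 of the 10 genes, and 4 are printed 5′ to 3′ in lower case, with matches to the CArG box, exact or with 1 centre base of C or G, in capitals. Acta2 (window chr19:34255324-34255623, minus strand) and Myl9 (chr2:156775214-156775513, plus strand) were lower in every AAV8-IGFBP1 library than in every AAV8-Null library. Smtn (chr11:3539243-3539542, minus strand) and Rgs5 (chr1:169655251-169655550, plus strand) overlapped between the groups.
Acta2: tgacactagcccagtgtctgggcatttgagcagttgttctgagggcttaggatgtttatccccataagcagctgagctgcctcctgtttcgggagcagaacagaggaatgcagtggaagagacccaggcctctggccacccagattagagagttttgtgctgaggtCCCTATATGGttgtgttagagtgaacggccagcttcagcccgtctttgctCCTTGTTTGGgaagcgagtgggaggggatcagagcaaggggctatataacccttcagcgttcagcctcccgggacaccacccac
Myl9: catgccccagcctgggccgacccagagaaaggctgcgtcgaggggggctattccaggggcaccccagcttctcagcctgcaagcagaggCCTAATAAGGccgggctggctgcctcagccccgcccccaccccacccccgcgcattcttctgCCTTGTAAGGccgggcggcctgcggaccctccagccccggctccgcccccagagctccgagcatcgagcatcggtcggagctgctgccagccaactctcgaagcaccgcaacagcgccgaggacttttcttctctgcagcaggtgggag
Smtn: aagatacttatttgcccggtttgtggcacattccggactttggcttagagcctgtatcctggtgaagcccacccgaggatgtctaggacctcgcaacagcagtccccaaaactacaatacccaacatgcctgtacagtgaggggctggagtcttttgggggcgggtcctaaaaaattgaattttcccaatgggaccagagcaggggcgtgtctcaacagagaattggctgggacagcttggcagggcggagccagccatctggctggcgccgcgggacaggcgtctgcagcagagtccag
Rgs5: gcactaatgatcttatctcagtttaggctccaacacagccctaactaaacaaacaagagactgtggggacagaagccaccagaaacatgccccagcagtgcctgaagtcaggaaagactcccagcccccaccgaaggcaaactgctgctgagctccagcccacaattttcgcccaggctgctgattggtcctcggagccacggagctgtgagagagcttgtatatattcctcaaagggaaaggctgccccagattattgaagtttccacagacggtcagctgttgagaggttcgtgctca
Distances count from the gene start that set each window, and whether transcription begins there was not checked. The Acta2 window held 2 matches with 1 changed centre base, from 84 to 75 and from 34 to 25 bases before the start. The Myl9 window held an exact match from 161 to 152 bases before the start and a match with 1 changed base from 99 to 90 bases before it. The windows of Cnn1, Smtn, Rgs5 and Cspg4 held neither form. Their log2 fold changes were -1.13, -0.09, -0.10 and 0.17, in that order, so a gene without a match could also have a low value. An exact match was present in 1.63% of all 32851 windows and either form in 9.98%; the motif reads the same in form on both strands, so one search covered both. No match says only that these letters are absent from this window. Tagln, Myh11, Pdgfrb and Higd1b had no window at hand. A link between the motif and the differences between the groups was not tested.

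The tissue label was checked first. Skeletal muscle genes were abundant in every library, with the fast myosin gene Myh4 at 65732 to 71577 CPM in AAV8-IGFBP1 and 51218 to 65602 CPM in AAV8-Null (CPM are counts scaled to a common library size). Library totals were 39927112 to 46197173 counts in AAV8-IGFBP1 and 38947453 to 51210360 in AAV8-Null. Igfbp1 had 202, 1425 and 142 counts in AAV8-IGFBP1 replicates 1 to 3 and 0, 0, 0 and 8 in AAV8-Null replicates 1 to 4. AAV8-IGFBP1 replicate 2 stood apart on the first principal component of all tested genes, at 45.2 against 8.24 and 12.6 in the other AAV8-IGFBP1 libraries and -25.7 to -11.9 in AAV8-Null. It also had the highest summed level of 8 adipocyte markers, 2896 CPM against 1013 to 2104 CPM in the other 6 libraries. AAV8-Null replicate 3 had the highest summed level of 9 tendon markers (414 CPM) and AAV8-IGFBP1 replicate 3 the lowest (82.0 CPM), against 179 to 331 CPM in the other 5 libraries.

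Tagln, a gene of the contractile apparatus, fell 2.14-fold in AAV8-IGFBP1 quadriceps and was the 1 gene of the 10 to pass the test. The means of Acta2, Myh11, Cnn1, Myl9 and Higd1b were also lower in AAV8-IGFBP1 without passing it, and those of Smtn, Pdgfrb, Rgs5 and Cspg4 differed by at most 0.17 on the log2 scale. Over all 14935 tested genes edgeR's quasi-likelihood test called 0.556% at an adjusted p under 0.05, with 0.362% higher and 0.194% lower in AAV8-IGFBP1; adjusted p-values are edgeR's unless another tool is named. The log2 fold change was below 0 in 9 of the 10 genes, against 50.1% of all tested genes, and the median was -0.58 (-0.31 with a filter of at least 50 counts, which removes Cnn1 and Higd1b), against a median of -0.00066 over all tested genes. In 4 of the 10, Tagln, Acta2, Myl9 and Higd1b, every AAV8-IGFBP1 library lay below every AAV8-Null library, as in 6.01% of all tested genes, while 6.33% of all tested genes had every AAV8-IGFBP1 library higher. An unadjusted p under 0.05 was found for 6 of the 10 and for 12.6% of all tested genes. The 18S ribosomal RNA gene Rn18s took 1.09, 2.29 and 1.52% of counts in AAV8-IGFBP1 replicates 1 to 3 and 0.593, 0.653, 1.32 and 0.797% in AAV8-Null replicates 1 to 4. With library sizes that leave out Rn18s, mitochondrial genes and the 10 most abundant genes, Tagln had a log2 fold change of -1.10 (adjusted p = 0.00809). In a bulk sample, fewer smooth muscle cells and less of a transcript per cell cannot be told apart.

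Tagln encodes transgelin, an actin-binding protein of smooth muscle. It had 6.21, 5.01 and 5.82 CPM in AAV8-IGFBP1 replicates 1 to 3, against 11.4, 12.6, 14.2 and 10.5 CPM in AAV8-Null replicates 1 to 4. The highest AAV8-IGFBP1 library therefore lay well under the lowest AAV8-Null library, and the groups did not overlap. The means were 5.68 ± 0.614 CPM in AAV8-IGFBP1 and 12.2 ± 1.61 CPM in AAV8-Null (SD, n = 3 and 4), with a log2 fold change of -1.10 (SE 0.12, adjusted p = 0.00778). With each library left out in turn Tagln stayed past the test, with a log2 fold change between -1.17 and -1.01 and an adjusted p of 0.0126 to 0.0310. Without both libraries numbered 3, the extremes of the tendon markers, it was -1.03 (adjusted p = 0.0341).

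Acta2 encodes the alpha-actin of vascular smooth muscle, the filament protein on which its myosin pulls. It had 12.2, 9.50 and 10.7 CPM in AAV8-IGFBP1 replicates 1 to 3 and 20.2, 21.5, 35.6 and 22.4 CPM in AAV8-Null replicates 1 to 4. The groups did not overlap, and AAV8-Null replicate 3 stood far above the other libraries of its group. The log2 fold change of -1.20 (SE 0.22) was the lowest of the 10 genes but did not pass the test with all libraries (adjusted p = 0.0780). Without AAV8-Null replicate 3 it was -0.98 and passed (adjusted p = 0.00857), and without both libraries numbered 3 it was also -0.98 (0.0245). Without any 1 of the other 6 libraries the adjusted p was 0.110 to 0.239.

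Myl9 encodes the regulatory light chain that switches smooth muscle myosin on when it is phosphorylated. It had 11.0, 9.82 and 12.0 CPM in AAV8-IGFBP1 replicates 1 to 3 and 14.6, 13.4, 18.6 and 16.2 CPM in AAV8-Null replicates 1 to 4. The groups did not overlap, though the gap between the nearest libraries was small. The log2 fold change was -0.52 (SE 0.12, adjusted p = 0.112).

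Myh11 encodes the smooth muscle myosin heavy chain, the motor itself and the most specific marker of the mature cell. It had 15.8, 12.1 and 17.6 CPM in AAV8-IGFBP1 replicates 1 to 3 and 22.1, 16.9, 29.9 and 26.2 CPM in AAV8-Null replicates 1 to 4. AAV8-Null replicate 2 lay below AAV8-IGFBP1 replicate 3, so the groups overlapped, and the log2 fold change was -0.64 (SE 0.21, adjusted p = 0.292). DESeq2's Wald test called 4 of the 10 genes, all lower: Tagln, Acta2 (adjusted p = 2.96e-07), Myl9 (0.0106) and Myh11 (0.0311). limma-voom called Tagln alone.

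Cnn1 encodes calponin, an actin-binding protein that restrains the myosin ATPase. It was the rarest of the contractile genes, with 10, 9 and 18 counts in AAV8-IGFBP1 replicates 1 to 3 and 14, 31, 33 and 30 counts in AAV8-Null replicates 1 to 4. The groups overlapped because AAV8-Null replicate 1, at 0.278 CPM, lay within the AAV8-IGFBP1 range of 0.217 to 0.398 CPM. The log2 fold change of -1.13 had an SE of 0.44 (adjusted p = 0.340), so at this depth a difference of that size could not be told from the spread.

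Smtn encodes smoothelin, a cytoskeletal protein of contractile smooth muscle cells. It had 55.3, 56.6 and 60.7 CPM in AAV8-IGFBP1 replicates 1 to 3 and 65.6, 55.6, 62.3 and 61.4 CPM in AAV8-Null replicates 1 to 4. The groups overlapped, and the log2 fold change was -0.09 (SE 0.07, adjusted p = 0.650), the nearest to 0 of the contractile genes.

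**Figure D1:**
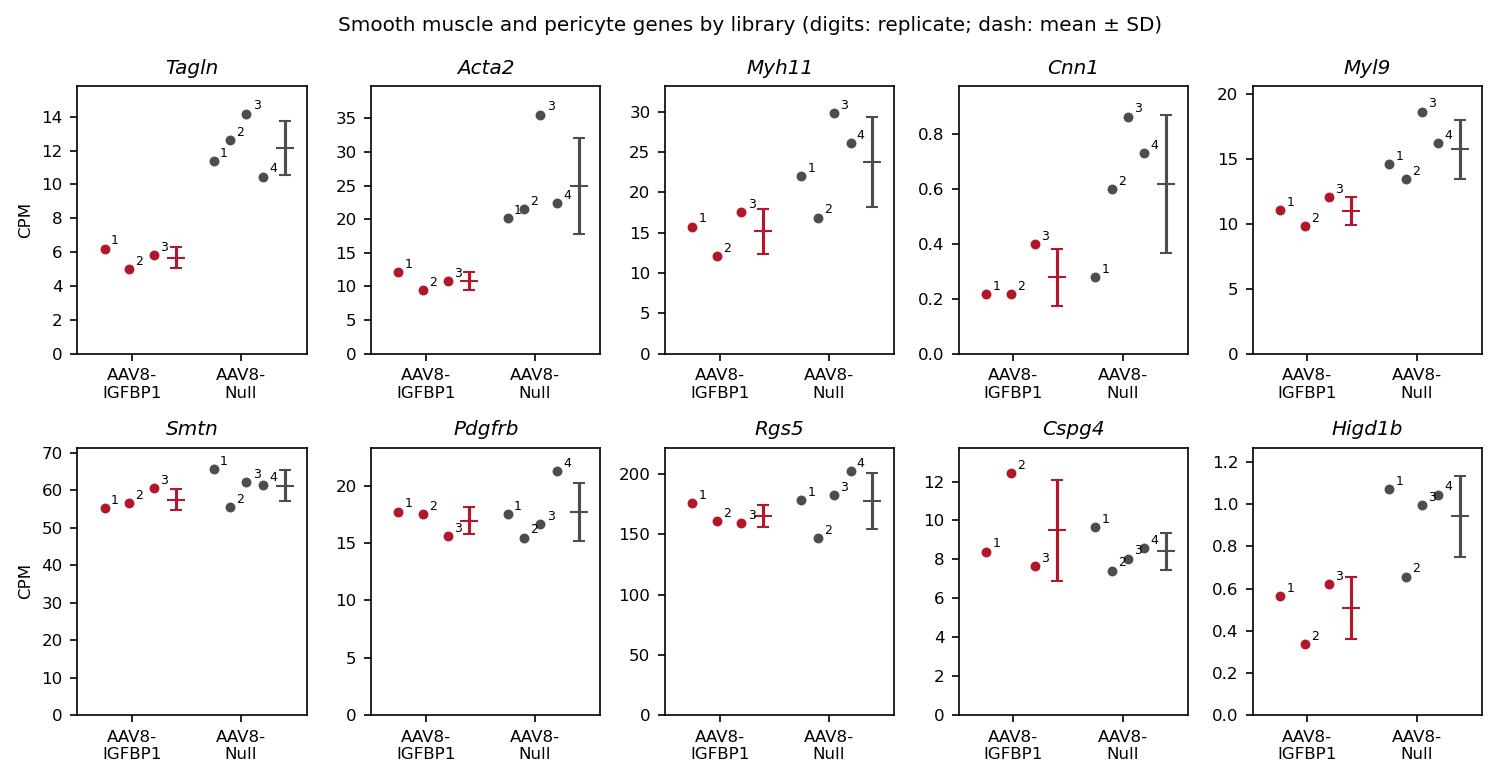
CPM of the 10 genes in each library, AAV8-IGFBP1 in red and AAV8-Null in grey, with the replicate number beside each point and the mean ± SD as a dash with bars. Tagln lay at 5.01 to 6.21 CPM in AAV8-IGFBP1 and 10.5 to 14.2 CPM in AAV8-Null, while Pdgfrb and Rgs5 overlapped between the groups.

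None of the pericyte markers passed the test. Pdgfrb encodes the receptor through which endothelial platelet-derived growth factor holds pericytes on the vessel. It had 17.7, 17.5 and 15.6 CPM in AAV8-IGFBP1 replicates 1 to 3 and 17.5, 15.5, 16.7 and 21.3 CPM in AAV8-Null replicates 1 to 4. The groups overlapped throughout, and the log2 fold change was -0.07 (SE 0.11, adjusted p = 0.858). Without AAV8-Null replicate 4, the highest library, it was 0.03.

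Rgs5 encodes a regulator that shortens G protein signalling in mural cells. It had 176, 161 and 159.5 CPM in AAV8-IGFBP1 replicates 1 to 3 and 178, 147, 182 and 203 CPM in AAV8-Null replicates 1 to 4. The AAV8-IGFBP1 values lay inside the AAV8-Null range, with a log2 fold change of -0.10 (SE 0.10, adjusted p = 0.733).

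Cspg4 encodes the NG2 proteoglycan of the pericyte surface. It had 8.40, 12.5 and 7.64 CPM in AAV8-IGFBP1 replicates 1 to 3 and 9.65, 7.42, 8.04 and 8.59 CPM in AAV8-Null replicates 1 to 4. Its log2 fold change of 0.17 (SE 0.17, adjusted p = 0.738) alone lay above 0 among the 10 genes. It was -0.07 once AAV8-IGFBP1 replicate 2, where adipocyte markers were highest, was left out.

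Higd1b, a marker of pericytes in single-cell surveys, had 26, 14 and 28 counts in AAV8-IGFBP1 replicates 1 to 3 and 54, 34, 38 and 43 counts in AAV8-Null replicates 1 to 4. Scaled to library size, this was 0.564, 0.339 and 0.620 CPM in AAV8-IGFBP1 and 1.07, 0.657, 0.995 and 1.05 CPM in AAV8-Null. The groups did not overlap, by a narrow margin at low counts, and the log2 fold change was -0.88 (SE 0.30, adjusted p = 0.278). Of the 4 pericyte markers edgeR, DESeq2 and limma-voom each called 0, and 1 had an unadjusted p under 0.05 (12.6% of all tested genes did).

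Side by side, the median log2 fold change was -0.87 over the 6 contractile genes and -0.08 over the 4 pericyte markers. With a single library left out, the contractile median ran from -0.94 to -0.72, and the pericyte median from -0.15 (without AAV8-Null replicate 2) to 0.0011 (without AAV8-Null replicate 4). The ratio of the summed contractile CPM to the summed pericyte CPM was 0.497, 0.488 and 0.585 in AAV8-IGFBP1 replicates 1 to 3 and 0.649, 0.707, 0.776 and 0.588 in AAV8-Null replicates 1 to 4. Rgs5 made up most of the pericyte sum, at 159.5 to 176 of 183 to 203 CPM in AAV8-IGFBP1. Smtn was the largest part of the contractile sum, at 55.3 to 60.7 of 93.3 to 107 CPM there. In AAV8-Null, Rgs5 took 147 to 203 of 170 to 234 CPM and Smtn 55.6 to 65.6 of 121 to 161 CPM. The AAV8-IGFBP1 ratios were all lower, the closest pair being AAV8-IGFBP1 replicate 3 and AAV8-Null replicate 4. No test is given for this difference, since the genes were chosen with earlier results known.

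Within the groups the same libraries recurred. AAV8-Null replicate 3 was the highest of all 7 libraries for Tagln, Acta2, Myh11, Cnn1 and Myl9, but not for Smtn or any pericyte marker. AAV8-IGFBP1 replicate 2 was the lowest for Tagln, Acta2, Myh11, Myl9 and Higd1b and the highest for Cspg4. AAV8-Null replicate 2 was the lowest for Pdgfrb, Rgs5 and Cspg4, and AAV8-Null replicate 4 the highest for Pdgfrb and Rgs5.

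**Figure D2:**
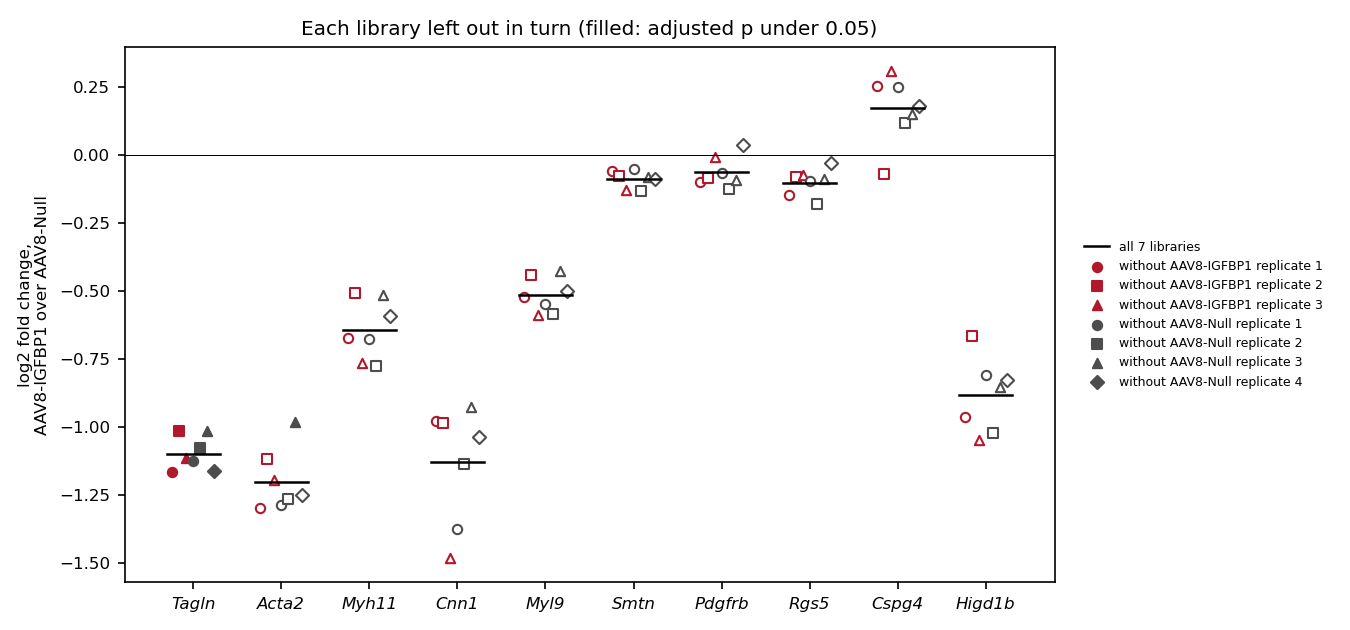
Log2 fold change of each gene, AAV8-IGFBP1 over AAV8-Null, with all 7 libraries (black line) and with each library left out in turn (symbols; filled where the adjusted p was under 0.05). Tagln stayed between -1.17 and -1.01 and past the test in all 7 fits, and Acta2 passed only without AAV8-Null replicate 3.

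To rank the 10 genes by level, CPM were taken per kilobase, with the length of the longest coding transcript in GENCODE M21. The summed CPM and the share of Acta2 in Acta1 counts are not scaled by length. Rgs5 had the highest mean level, 40.4 CPM per kilobase in AAV8-IGFBP1 and 43.4 in AAV8-Null, followed by Smtn with 17.0 in AAV8-IGFBP1 and 18.1 in AAV8-Null. Myl9 had 9.72 CPM per kilobase in AAV8-IGFBP1 and 13.9 in AAV8-Null, Acta2 5.31 in AAV8-IGFBP1 and 12.2 in AAV8-Null, and Tagln 3.56 in AAV8-IGFBP1 and 7.63 in AAV8-Null. Below them, Pdgfrb had 3.12 CPM per kilobase in AAV8-IGFBP1 and 3.27 in AAV8-Null, and Myh11 2.31 in AAV8-IGFBP1 and 3.63 in AAV8-Null, so the order of these neighbours differed between the groups. Cspg4, Higd1b and Cnn1 were lowest, at 0.117 to 1.17 in AAV8-IGFBP1 and 0.259 to 1.28 in AAV8-Null.

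Several of the genes have close relatives whose reads could be taken for theirs, above all Acta2 in a tissue dominated by skeletal actin. Acta2 counts amounted to 0.0385 to 0.0419% of Acta1 counts in AAV8-IGFBP1 and 0.0756 to 0.151% in AAV8-Null. Of the 50-base stretches of the longest Acta2 transcript, 0.352% also occurred in transcripts of another gene. The genes with the most shared stretches were cytoplasmic actin Actg1 and actin pseudogenes. Genes with fewer were not recorded, so whether Acta1 holds some of the 0.352% is not known. Only exact stretches were compared, which leaves out reads placed with mismatches. For Myh11 the share was 0.4%, with the non-muscle myosins Myh9 and Myh10, and for the other 8 genes it was 0.

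None of the tested relatives passed the edgeR test. Acta1, the actin of skeletal fibres, had a log2 fold change of 0.08 (adjusted p = 0.787), and Actc1, the cardiac actin gene, had 0.79 (0.0914), with 134 to 213 CPM in AAV8-IGFBP1 above 86.6 to 113 CPM in AAV8-Null. Actc1 passed without AAV8-IGFBP1 replicate 3 (adjusted p = 0.0150) and by DESeq2 (3.26e-05). Tagln2, the broadly expressed relative of Tagln, had 13.2 to 14.9 CPM in AAV8-IGFBP1 and 14.8 to 21.3 CPM in AAV8-Null (log2 fold change -0.36, adjusted p = 0.311). The non-muscle calponins Cnn2 (-0.57, adjusted p = 0.256) and Cnn3 (-0.51, 0.182) and the non-muscle myosin Myh10 (-0.63, 0.295) lay lower, and Myh9 (-0.23, 0.539), Myl12a (-0.40, 0.494) and Myl12b (-0.18, 0.659) were nearer to 0. Pdgfra, the receptor of fibroblasts related to Pdgfrb, had a log2 fold change of -0.08 (adjusted p = 0.905). Rgs4 had -0.35 (0.656), and the smoothelin-like genes Smtnl1 and Smtnl2 had -0.42 (0.564) and -0.18 (0.477). Of the 16 tested relatives 13 lay below 0 and edgeR and limma-voom called 0; DESeq2 called 3 (Actc1 higher, Cnn3 and Myh10 lower), and 5 had an unadjusted p under 0.05, against 12.6% of all tested genes. Actg2, the enteric smooth muscle actin gene, was too rare to be tested, at 0 to 0.133 CPM in AAV8-IGFBP1 and 0.0243 to 0.135 CPM in AAV8-Null.

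**Figure D3:**
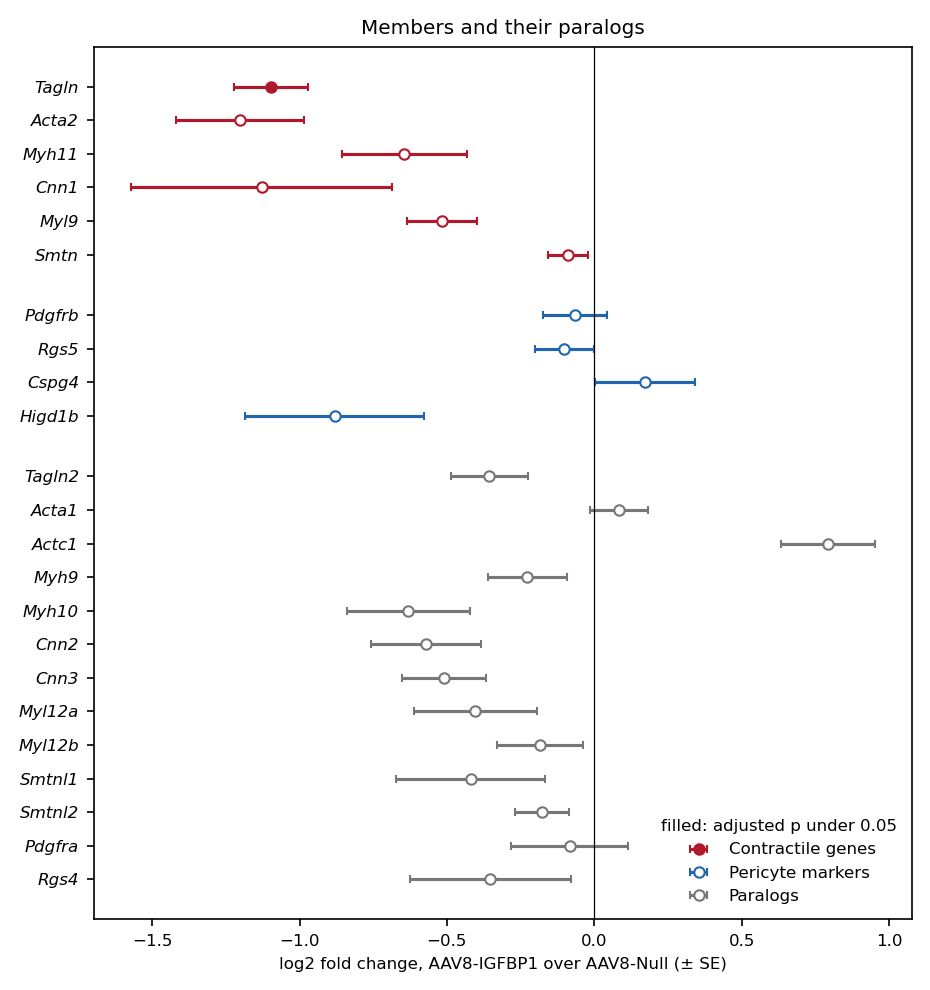
Log2 fold change ± SE of the 6 contractile genes, the 4 pericyte markers and 13 relatives, AAV8-IGFBP1 over AAV8-Null, with filled points where the adjusted p was under 0.05. Tagln is the 1 filled point, and Tagln2 (-0.36) and Acta1 (0.08) lie to the right of Tagln (-1.10) and Acta2 (-1.20).

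Other smooth muscle genes did not pass the test, and most had values below 0. Of 16 tested genes outside the 10, 12 had a log2 fold change below 0 (median -0.17). edgeR and limma-voom called 0, DESeq2 called 1 (Pcp4l1), and 4 had an unadjusted p under 0.05, against 12.6% of all tested genes. Pcp4l1 had 18.7 to 19.6 CPM in AAV8-IGFBP1 and 19.9 to 36.2 CPM in AAV8-Null (log2 fold change -0.59, adjusted p = 0.255). Without AAV8-Null replicate 2 it passed (adjusted p = 0.0277). Cald1, which encodes the thin filament regulator caldesmon, had a log2 fold change of -0.39 (adjusted p = 0.311) and groups that did not overlap. Tpm2 encodes a tropomyosin that skeletal fibres also make in quantity, and had -0.21 (0.372).

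Of 19 tested mural cell genes outside the 10, 14 lay below 0 (median -0.18; leaving out AAV8-IGFBP1 replicate 1 or 2 made it -0.32 or -0.29). edgeR and limma-voom called 0 of them, DESeq2 called 1 (Notch3), and 6 had an unadjusted p under 0.05, against 12.6% of all tested genes. Notch3, the receptor that maintains arterial smooth muscle identity, had 13.6 to 14.2 CPM in AAV8-IGFBP1 and 15.5 to 19.8 CPM in AAV8-Null (log2 fold change -0.36, adjusted p = 0.129). Heyl, a transcription factor gene downstream of Notch3, had 4.28 to 4.67 CPM in AAV8-IGFBP1 and 5.21 to 6.40 CPM in AAV8-Null (log2 fold change -0.42, adjusted p = 0.163). In both genes the groups did not overlap and neither passed the edgeR test. Vtn, which encodes vitronectin, had a log2 fold change of -0.50 (adjusted p = 0.248). Abcc9 and Kcnj8 encode the subunits of the pericyte ATP-sensitive potassium channel. They lay above 0, at 0.15 (adjusted p = 0.355) and 0.14 (0.839). For Abcc9, which skeletal fibres also express, every AAV8-IGFBP1 library (235 to 255 CPM) was above every AAV8-Null library (209 to 231 CPM). Of the 19 genes, 4 had every AAV8-IGFBP1 library lower, as in 6.01% of all tested genes. Every AAV8-IGFBP1 library was higher in 1, as in 6.33% of all tested genes.

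The regulators of contractile genes did not pass the test. Srf, the serum response factor gene, had 86.1 to 90.8 CPM in AAV8-IGFBP1 and 81.2 to 94.1 CPM in AAV8-Null (log2 fold change -0.01, SE 0.06, adjusted p = 0.959). Its cofactor genes Mrtfa and Mrtfb had log2 fold changes of -0.18 (adjusted p = 0.517) and 0.18 (0.509). Myocd, the myocardin gene, was too rare to be tested, at 0.0664 to 0.109 CPM in AAV8-IGFBP1 and 0.0993 to 0.213 CPM in AAV8-Null. Klf4 encodes a repressor of contractile genes in smooth muscle and had a log2 fold change of -1.14 (adjusted p = 0.296), and it passed without AAV8-Null replicate 4 (adjusted p = 0.0438). Fhl2, a cofactor gene, had -1.11 (0.255) and Elk3, a ternary complex factor gene, had -0.35 (0.302). Of these 9 tested regulators 7 lay below 0 (median -0.18; -0.09 without AAV8-IGFBP1 replicate 1), edgeR, DESeq2 and limma-voom each called 0, and 3 had an unadjusted p under 0.05, against 12.6% of all tested genes.

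Of 14 cytoskeletal and immediate early genes known as serum response factor targets, 13 lay below 0 (median -0.27). In 5 of them every AAV8-IGFBP1 library lay below every AAV8-Null library, as in 6.01% of all tested genes. edgeR, DESeq2 and limma-voom each called 0, and 4 had an unadjusted p under 0.05, against 12.6% of all tested genes. Actg1, a cytoplasmic actin gene, had a log2 fold change of -0.41 (adjusted p = 0.311), and the focal adhesion genes Zyx and Vcl had -0.38 (0.349) and -0.20 (0.355).

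Signals that recruit and hold mural cells were also measured. Pdgfb, the ligand of Pdgfrb, had 13.4 to 16.4 CPM in AAV8-IGFBP1 and 14.3 to 22.0 CPM in AAV8-Null (log2 fold change -0.33, adjusted p = 0.376). Of the 6 tested platelet-derived growth factor genes 5 lay below 0 (median -0.18), 1 had an unadjusted p under 0.05, against 12.6% of all tested genes, and edgeR, DESeq2 and limma-voom each called 0. Angpt1, the mural ligand that stabilises vessels, had a log2 fold change of -0.18 (adjusted p = 0.376). Of the 5 tested angiopoietin and Tie genes 3 lay below 0 and 2, Angpt2 (0.44) and Angptl4 (0.19), above it, with a median of -0.0039; edgeR, DESeq2 and limma-voom each called 0, and 1, Angpt1, had an unadjusted p under 0.05, against 12.6% of all tested genes. Among 8 tested Notch pathway genes, the arterial ligand gene Dll4 had 0.35 (adjusted p = 0.318), Jag1, the ligand of Notch3, had -0.20 (0.417) and the target gene Hey1 had -0.69 (0.433). edgeR, DESeq2 and limma-voom each called 0 of these 8, and 1 had an unadjusted p under 0.05, against 12.6% of all tested genes.

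The genes of the transforming growth factor beta family and its signalling, which promotes the contractile state, had values on both sides of 0. Tgfb3 had 59.6, 54.5 and 60.5 CPM in AAV8-IGFBP1 replicates 1 to 3 and 44.5, 48.6, 45.4 and 41.7 CPM in AAV8-Null replicates 1 to 4. All AAV8-IGFBP1 libraries were higher, and the log2 fold change of 0.37 (SE 0.07) missed the threshold (adjusted p = 0.0565). Tgfb2 had 15.9, 18.6 and 19.7 CPM in AAV8-IGFBP1 replicates 1 to 3 and 21.9, 25.8, 26.7 and 22.3 CPM in AAV8-Null replicates 1 to 4, so all AAV8-IGFBP1 libraries were lower (log2 fold change -0.42, SE 0.10, adjusted p = 0.120). Acvrl1, an endothelial receptor gene of this family, had -0.57 (0.234). Of the 13 tested genes 8 lay below 0 (median -0.02), edgeR and limma-voom called 0, DESeq2 called 2 (Tgfb3 higher, Tgfb2 lower), limma-voom with quality weights called 1 (Tgfb3), and 5 had an unadjusted p under 0.05, against 12.6% of all tested genes. Tgfb3 passed the edgeR test without AAV8-Null replicate 2 (adjusted p = 0.0498), and in no other fit with a single library left out. With all libraries it passed with no count filter (adjusted p = 0.00356) and with at least 50 counts in every library of 1 group (0.0451).

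Endothelial markers stand for the vessels that mural cells cover, and none passed the test. Pecam1, an adhesion gene of endothelium, had 37.3 to 40.0 CPM in AAV8-IGFBP1 and 37.3 to 42.3 CPM in AAV8-Null (log2 fold change -0.03, SE 0.06, adjusted p = 0.898). Cdh5, the endothelial cadherin gene, had a log2 fold change of -0.13 (adjusted p = 0.603). Of 14 tested markers 12 lay below 0 with a median of -0.08, edgeR, DESeq2 and limma-voom each called 0, and 1, the sialomucin gene Emcn (-0.28, adjusted p = 0.292), had an unadjusted p under 0.05, against 12.6% of all tested genes.

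Markers of other cell types lay mostly to one side of 0, while their summed levels overlapped between the groups in 5 of 6 lists, all but that of Schwann cells. All 10 fibroblast markers lay below 0 (median -0.42), with summed levels of 381 to 682 CPM in AAV8-IGFBP1 and 618 to 1026 CPM in AAV8-Null. All 9 tendon markers lay below 0 (median -0.43), with sums of 82.0 to 331 CPM in AAV8-IGFBP1 and 179 to 414 CPM in AAV8-Null. The tendon median was -1.18 without AAV8-IGFBP1 replicate 1, -0.11 without AAV8-IGFBP1 replicate 3, -0.20 without AAV8-Null replicate 3 and 0.20 without both libraries numbered 3. All 7 slow fibre genes lay below 0 (median -1.44), with sums of 243 to 799.9 CPM in AAV8-IGFBP1 and 567 to 1812 CPM in AAV8-Null. All 6 Schwann cell markers lay below 0 (median -0.37), with sums of 31.0 to 36.8 CPM in AAV8-IGFBP1 and 37.7 to 54.8 CPM in AAV8-Null. All 8 adipocyte markers lay above 0 (median 1.01), with sums of 1200.2 to 2896 CPM in AAV8-IGFBP1 and 1013 to 1238 CPM in AAV8-Null. Leaving out AAV8-IGFBP1 replicate 2 put the adipocyte median at -0.05. Of 7 macrophage markers 5 lay below 0 (median -0.15; sums of 45.4 to 81.9 CPM in AAV8-IGFBP1 and 55.7 to 85.2 CPM in AAV8-Null); leaving out AAV8-IGFBP1 replicate 3 put it at 0.09. In these 6 lists edgeR and limma-voom called no gene. Among the fibroblast, tendon, slow fibre, adipocyte and macrophage genes DESeq2 called Col3a1, Pi16 and Tnnc1 lower and Car3 higher. Over all 6 lists the unadjusted p was under 0.05 for 3 fibroblast, 4 slow fibre, 3 Schwann cell and 1 adipocyte gene and for 0 tendon and 0 macrophage genes, against 12.6% of all tested genes. No marker of these 6 lists was at 0 in every library. Their part in the contractile gene values was not tested.

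**Figure D4:**
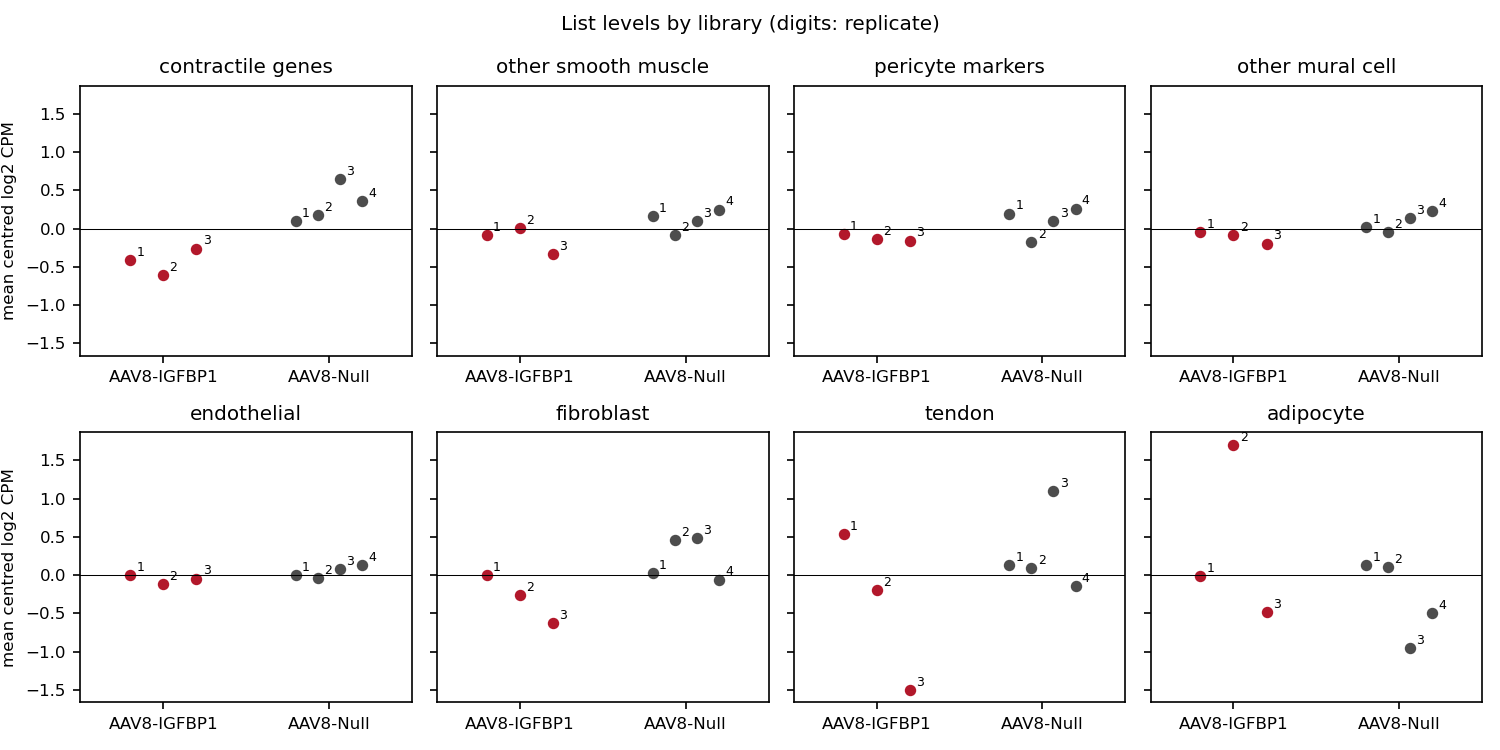
Mean log2 CPM over the tested genes of each list, centred on the 7 libraries, by library, with AAV8-IGFBP1 in red and AAV8-Null in grey and the replicate number beside each point. Contractile genes lay at -0.61 to -0.26 in AAV8-IGFBP1 and 0.09 to 0.65 in AAV8-Null, while pericyte markers lay at -0.16 to -0.07 in AAV8-IGFBP1 and -0.18 to 0.26 in AAV8-Null.

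Across all 7 libraries, the tested genes whose log2 CPM followed Tagln most closely were Pus3, Alkbh3, Slc25a37, Ckb and Tceal3, with Pearson's r of 0.98, 0.98, 0.98, 0.97 and 0.97. Those closest to Pdgfrb were Akap9, Ccpg1, Kif5a, Tfcp2 and Cbx5, with r of 0.97, 0.97, 0.95, 0.95 and 0.94. The likeness is a description over 7 libraries and is the highest of 14934 genes ranked, and for Tagln it includes the difference between the groups. None of these 10 correlated genes is a mural cell marker of the lists used here. Among the smooth muscle and pericyte genes themselves, r with Tagln ran from -0.46 (Cspg4) to 0.96 (Acta2). With Pdgfrb it ran from 0.03 (Tagln) to 0.85 (Rgs5). Higd1b had an r of 0.93 with Myh11 and 0.31 with Pdgfrb.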

How the data were processed

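RNA-seq counts were measured in 7 quadriceps libraries, grouped by their titles. Per the labels' protocols, RNA came from RNeasy Mini Kit extraction and library preparation used Universal Plus mRNA-Seq with NuQuant. The deposited values are estimated counts by gene symbol, not all of them whole; per the submitters' processing notes (roles not stated there), the tools were Salmon 1.10.1, STAR 2.7.9a, Trim Galore 0.6.7, cutadapt 3.4 and R 4.2.2, and the build GRCm39. Annotation release and strand setting: not given in the sources used here. Overlapping genes could therefore share reads.

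Counts were rounded and tested with edgeR 4.0.16 (R 4.3.3): filterByExpr (minimum count 10, minimum total 15), TMM scaling, glmQLFit with robust estimation and glmQLFTest on group, with Benjamini-Hochberg adjustment over 14935 genes and a threshold of 0.05. The SE was taken as the absolute log2 fold change over the root of F, an approximation. CPM uses scaled library totals; log2 CPM has a prior count of 2. A count of 0 allows up to 3 counts, 0.0580 to 0.0785 CPM, which covers counting error only. No pair of replicates within a group looked like 1 library deposited again (chi-square per degree of freedom 22.2 to 60.0). The steps were tested on simulated data. The genes and lists were chosen with earlier results of these data known. Besides the 10 genes, named genes were up to 3 with the lowest unadjusted p in each list, their relatives, the genes most correlated with Tagln and Pdgfrb, and genes named for their role after their values were seen (Srf, Mrtfa, Mrtfb, Myocd, Abcc9, Kcnj8, Pecam1, Cdh5, Jag1, Hey1, Myh4). Alternatives were DESeq2 1.42.0, limma-voom (limma 3.58.1) without and with quality weights, other scalings and filters, blocking on the replicate number, a 0.1 threshold, and libraries left out. Promoters are RefSeq's (GRCm38.p6); transcript lengths and shared stretches are from GENCODE M21, which may differ from the authors' annotation. A comparison of protein sequences was planned and is not reported here; transcript stretches were compared in its place. DESeq2 calls of single Schwann cell genes are not reported here.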

Additional observations from a re-analysis of the deposited data

Results flagged for a closer look

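AAV8-Null replicate 3 lay above the other 3 AAV8-Null libraries for Acta2 (35.6 CPM, next highest 22.4), Vcl (88.4 CPM, next 74.2) and Myh9 (96.8 CPM, next 70.8). It also lay above them for Pdgfra (20.1 CPM, next 13.5), Acvrl1 (16.05 CPM, next 10.3) and the summed tendon markers (414 CPM, next 214). AAV8-Null replicate 2 lay below the others for Jag1 by a small amount (6.16 CPM, the others 6.81 to 6.85). Each was flagged because its gap to the nearest library, as a share of the range of the 4 libraries, was over Dixon's critical value, which chance passes in about 1 of 20 groups. There were 7 such flags among 51 genes and 21 lists examined. The AAV8-IGFBP1 group, with 3 libraries, was too small for this check.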

How the results depend on the processing

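Tagln was lower under all 19 alternatives and past the test in 18 (log2 fold change -1.17 to -1.01). The 0.1 threshold, counted among these, reuses the main fit, so its signs and its call of Tagln were fixed in advance. All of the 10 genes but Pdgfrb and Cspg4 kept their sign under each alternative that tested them; the filter of at least 50 counts removes Cnn1 and Higd1b. The count of the 10 genes called, 1, was 4 with DESeq2, 2 with no count filter, 2 at a threshold of 0.1, 2 without both libraries numbered 3, and 1 to 2 with a single library left out. With no count filter edgeR called Myl9 (adjusted p = 0.00486) besides Tagln. Outside the 10 genes that fit also called Tgfb2 (0.00901), Notch3 (0.0415) and Cnn3 (0.0485). The 83 genes called in all became 451 with DESeq2, 306 with no count filter, 215 at a threshold of 0.1, 42 without both libraries numbered 3, and 19 to 86 with a single library left out (AAV8-IGFBP1 replicates 1 and 2 gave 28 and 23 when omitted, AAV8-Null replicates 1 and 3 gave 19 and 52). The contractile median of -0.87 was -0.64 with at least 50 counts in every library of 1 group, and ran from -0.94 to -0.72 with a library left out. With the replicate number as a block, on the libraries numbered 1 to 3, 19 genes were called, 0 of them among the 10 (Tagln log2 fold change -1.16, adjusted p = 0.0553), and Pdgfrb was at 0.0342. Same-numbered libraries did not deviate together over all tested genes (correlations -0.10, 0.07 and -0.06). No AAV8-IGFBP1 library correlated best with its own number. With so few libraries this check cannot show whether same-numbered libraries were handled together.

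These log2 fold changes changed sign, none past the test on either side. Pdgfrb was 0.0344 without AAV8-Null replicate 4 (-0.124 to 0.0344 with a single library left out). Cspg4 was -0.0709 without AAV8-IGFBP1 replicate 2 (-0.0709 to 0.306). Pdgfra was 0.00622 with quality weights and 0.238 without both libraries numbered 3; it was 0.0492 without AAV8-IGFBP1 replicate 3 and 0.106 without AAV8-Null replicate 3 (-0.177 to 0.106). Pecam1 was 0.00374 without AAV8-IGFBP1 replicate 2 and 0.00180 without AAV8-Null replicate 3 (-0.0578 to 0.00374). Srf was 0.00353, 0.00498 and 0.0177 without AAV8-IGFBP1 replicate 2, AAV8-Null replicate 2 and AAV8-Null replicate 3, in that order (-0.0521 to 0.0177). The cause was not tested. Depth limits Cnn1 and Higd1b, with 9 to 54 counts per library.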
